A study of Caenorhabditis elegans with 2 samples.

Results

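The 462 candidate intervals with a summit within 250 bp of a nuclear tRNA gene, out of 30000 candidates in all, are described here. They come from chromatin immunoprecipitation and sequencing (ChIP-seq) of NHR-21 fused to eGFP, a nuclear hormone receptor of the nematode Caenorhabditis elegans. The animals were mixed-sex L2 larvae of strain OP361, genotype unc-119(tm4063) III; wgIs361, used whole. All animals thus carried both the unc-119 mutation and the integrated transgene wgIs361, their age is given as unknown, and the sampled chromatin was that of all tissues together. The labels do not say what drives the transgene. There were 2 biological replicates of this 1 group and no untagged or control sample was analysed here, although the intervals were called with a control alignment, so no comparison between conditions was made. As target, the antibody field gives nhr-21 and the sample description the eGFP fusion.

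A tRNA gene is short and is transcribed by RNA polymerase III from promoter elements that lie inside the transcribed sequence. The A box and the B box are recognised by the factor TFIIIC, which places TFIIIB just upstream of the gene, and TFIIIB recruits the polymerase. Nuclear hormone receptors such as NHR-21 are zinc-finger DNA-binding proteins, of which the C. elegans genome encodes an unusually large family.

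Each interval carries a signal, the enrichment value given to it by the authors' peak caller, and rank 1 is the highest signal of a list. The optimal list, the authors' set of 3647 peaks past a reproducibility threshold, held the 3647 highest signals of the pooled candidates. The replicate lists held 30000 candidates each, and with no read totals in these files the sequencing depth is unknown. Members were found by position alone, in build ce11, which has the coordinates of the WBcel235 annotation, and no signal was used to choose them. Intervals are not replicates of a condition, so shares are given as descriptions with 95% Wilson intervals that cover counting error only, and no test was made over them.

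The genes of the strongest and the weakest members are shown first, because all of them hold the same internal element whatever the signal beside them. Sequences are from the RefSeq WBcel235 genome, 5′ to 3′ on the strand of the gene, and capitals mark the core of the B box (GTTCGANNC or GTTCAANNC). R04A9.t1 (glutamine, chrX:410391-410462, plus strand), F46G11.t1 (proline, chrX:5801472-5801543, plus), R04D3.t2 (valine, chrX:13307034-13307106, plus), R11.t1 (tyrosine, chrX:16209769-16209852, minus), B0228.t1 (glutamine, chrII:7756952-7757023, minus) and C04A11.t1 (leucine, chrX:13665555-13665673, plus) are a selection from the strongest members, of ranks 214 to 536. Other members in that range are named with their values further on, and their sequences are not shown. F27B10.t1 (glutamate, chrV:7069748-7069818, minus) and T01B4.t3 (valine, chrX:16300063-16300135, plus) lay beside the weakest. T18D3.t1 (alanine, chrX:12458176-12458247, minus) and C06G1.t1 (histidine, chrX:16634830-16634901, minus) stand for families of identical genes described further on.
R04A9.t1: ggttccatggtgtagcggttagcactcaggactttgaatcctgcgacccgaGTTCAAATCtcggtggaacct
F46G11.t1: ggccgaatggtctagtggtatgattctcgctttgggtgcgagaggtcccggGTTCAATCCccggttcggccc
R04D3.t2: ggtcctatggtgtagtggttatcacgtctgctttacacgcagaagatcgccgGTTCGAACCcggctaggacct
R11.t1: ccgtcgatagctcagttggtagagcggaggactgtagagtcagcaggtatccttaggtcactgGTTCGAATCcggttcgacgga
B0228.t1: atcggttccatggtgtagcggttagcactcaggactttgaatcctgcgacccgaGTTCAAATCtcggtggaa
C04A11.t1: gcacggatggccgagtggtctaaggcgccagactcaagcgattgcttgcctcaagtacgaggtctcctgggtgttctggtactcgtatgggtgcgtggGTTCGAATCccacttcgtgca
F27B10.t1: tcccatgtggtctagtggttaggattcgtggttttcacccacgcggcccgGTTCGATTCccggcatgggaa
T01B4.t3: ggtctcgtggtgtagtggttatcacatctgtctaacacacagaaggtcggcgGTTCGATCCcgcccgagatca
T18D3.t1: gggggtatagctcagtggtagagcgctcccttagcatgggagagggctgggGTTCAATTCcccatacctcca
C06G1.t1: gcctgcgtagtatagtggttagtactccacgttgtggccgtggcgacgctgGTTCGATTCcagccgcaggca

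The summit itself could lie in the gene or beside it, and 1 window of each kind is shown on the plus strand of the genome, with the bases of the tRNA gene in capitals. The 201 bp around the summit of the R04D3.t2 interval (chrX:13306969-13307169) hold the whole gene, and the summit at position 13307069 lies within it. The 201 bp around the summit of the R11.t1 interval (chrX:16209787-16209987) hold 66 bases of the gene, and the summit at position 16209887 lies 35 bp before the start of this minus-strand gene.
R04D3.t2 window: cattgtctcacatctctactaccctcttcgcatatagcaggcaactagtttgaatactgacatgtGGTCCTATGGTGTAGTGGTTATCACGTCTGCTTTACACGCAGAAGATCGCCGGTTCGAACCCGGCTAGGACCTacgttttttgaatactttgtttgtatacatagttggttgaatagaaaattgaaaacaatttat
R11.t1 window: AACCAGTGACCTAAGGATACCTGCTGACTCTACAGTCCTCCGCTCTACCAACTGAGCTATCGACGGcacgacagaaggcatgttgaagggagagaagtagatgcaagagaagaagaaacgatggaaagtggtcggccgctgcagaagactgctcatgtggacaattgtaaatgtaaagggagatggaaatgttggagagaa

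Intervals beside tRNA genes were strong but were not among the very strongest. Of the 462 members, 195 were in the optimal list (42.2%, 37.8 to 46.8), against 12.2% of all pooled candidates. The other 29538 candidates had a share of 11.7%. In the stronger 50% of the optimal list, its first 1823 ranks, there were 78 members (16.9%, 13.7 to 20.6), against 6.08% of all candidates. The median rank was 4268.5 for members (quartiles 2469 and 9097), against 15000.5 for all candidates. The median signal was 46.0 for members (quartiles 25.5 and 70.2, lowest 9.92, highest 279.8), against 17.4 for all candidates.

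The first member stood at rank 214, so that 213 intervals were stronger than any beside a tRNA gene. No member was among ranks 1 to 200. Members made up 3.33% of ranks 201 to 500 (10 intervals), 6% of ranks 501 to 1000 (30 intervals) and 5% of ranks 1001 to 2000 (50 intervals). Their share was 6.38% at ranks 2001 to 3647 (105 intervals) and 4.95% just below the optimal list, at ranks 3648 to 5000 (67 intervals). It then fell with rank to 0.33% at ranks 20001 to 30000, against 1.54% in the list as a whole. Within the optimal list the median signal was 77.1 for members and 87.3 for all its peaks.

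**Figure D1:**
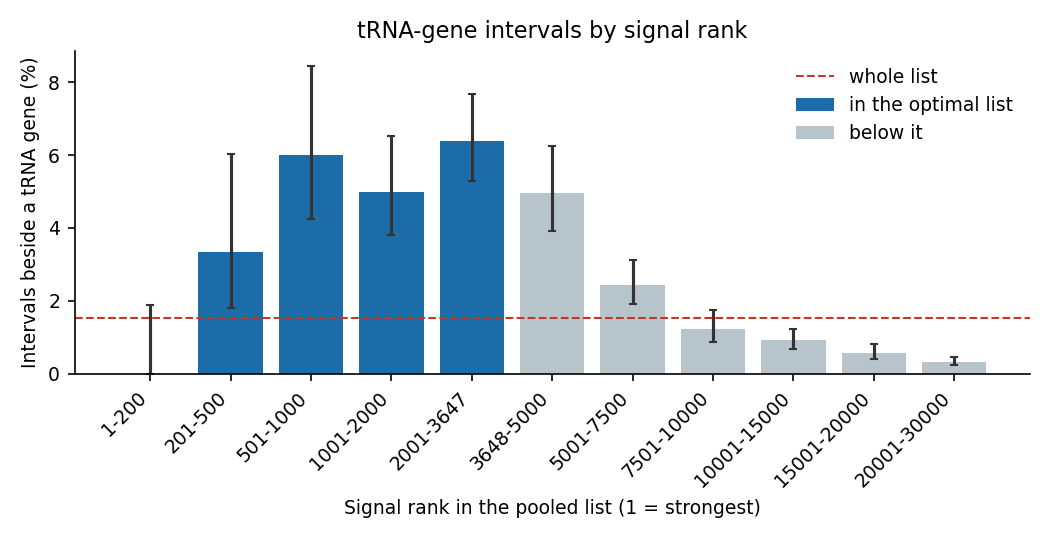
Share of intervals that lay beside a tRNA gene (%, vertical axis) by signal rank in the pooled list (horizontal axis), with 95% Wilson intervals as error bars; blue bars are ranks within the optimal list, grey bars ranks below it, and the dashed line is the share over all candidates. No interval of ranks 1 to 200 lay beside a tRNA gene, and the share was highest, at 6.38%, in ranks 2001 to 3647.

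The threshold of the optimal list ran through the members with no gap in signal. The 5 members just inside it lay at T01B4.t4 (signal 52.9, rank 3575), K04C2.t3 (52.8), F55F3.t1 (52.7), R04D3.t5 (52.7) and rte-2 (52.6, rank 3602). The 5 just outside lay at Y69A2AR.t2 (52.1, rank 3657), F12D9.t1 (51.7), K07A1.t1 (51.6), ZK1067.t1 (51.5) and F53F8.t1 (51.5, rank 3701). All 10 of these intervals stood at the ceiling of the deposited −log10 q-value, 3.998. That ceiling was reached by 260 members (56.3%), 65 of them outside the optimal list, against 16.6% of all candidates.

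The strongest member lay beside R04A9.t1, a glutamine tRNA gene whose sequence is shown above. Its interval, chrX:410066-410307, had a pooled signal of 279.8, with 125.5 in replicate 1 (rank 169) and 150.0 in replicate 2 (rank 278). The tRNA gene lies in an intron of ZK1193.2, on the opposite strand. The summit was 156 bp upstream of the tRNA gene and within the promoter window of ZK1193.2, the stretch from 1000 bp upstream to 250 bp downstream of a protein-coding 5′ end. The next members, by rank, lay beside C28G1.t1 (glutamate, signal 239.4, rank 298), F46G11.t1 (proline, 235.6, rank 314), M02F4.t2 (glutamate, 220.6, rank 362) and B0350.t1 (lysine, 216.0, rank 376). At C28G1.t1 the signal was 92.5 in replicate 1 and 147.9 in replicate 2, and at B0350.t1, the strongest member with its summit inside the gene, 84.2 and 136.1. The summits at C28G1.t1 and F46G11.t1 lay 88 and 94 bp upstream of the gene. The 3 strongest members therefore all had their summit well outside the tRNA gene.

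Ranks 380 to 536 held members beside F41D9.t3 (asparagine, signal 215.4), R04D3.t2 (valine, 208.8), R11.t1 (tyrosine, 199.3), C53C7.t2 (serine, 186.8), F13G11.t1 (arginine, 186.0), W09D6.t1 (proline, 182.9), B0228.t1 (glutamine, 177.9) and C04A11.t1 (leucine, 177.2). F57F5.t1 (isoleucine, 171.1), T09B4.t1 (isoleucine, 170.2), T18D3.t1 (alanine, 166.1), F15G9.t1 (alanine, 165.7), ZK899.t1 (proline, 165.2), C33G3.t2 (lysine, 164.4) and C14B9.t2 (leucine, 161.0, rank 643) completed the first 20. The first 20 members covered 12 isotypes, 13 of the 20 were on chromosome X, and 3 had a summit in a protein-coding promoter window. F41D9.t3 lies in an intron of sulp-3, W09D6.t1 in an intron of rsa-2 and F15G9.t1 in an intron of him-4. B0228.t1, counted here as a sequence found once, shares a run of 69 bases with R04A9.t1 and is annotated with other ends, so counts of copies depend on the annotated ends.

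Members with a summit in or close to the gene were stronger. Summits inside a tRNA gene were in the optimal list in 99 of 205 cases (48.3%, 41.5 to 55.1), and those 1 to 50 bp away in 69 of 149 (46.3%, 38.5 to 54.3). The share was 32.8% at 51 to 100 bp (20 of 61) and 14.9% over 100 and up to 250 bp (7 of 47). Beyond the limit used for members it was 14.3% at 251 to 500 bp (4 of 28), 7.41% at 501 to 1000 bp (10 of 135) and 12.2% at 1001 to 2000 bp (27 of 222), so that intervals farther than 100 bp from a tRNA gene had a share near or below that of all candidates. The 47 members over 100 bp away had a median signal of 18.4, against 51.3 for the 205 with the summit in the gene. Yet 20 of these 47 (42.6%) overlapped an interval among the 3647 strongest in each replicate list, against 74 of the 205 (36.1%) and 10.8% of all candidates, a count in which members that overlap a stronger optimal neighbour take part.

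**Figure D2:**
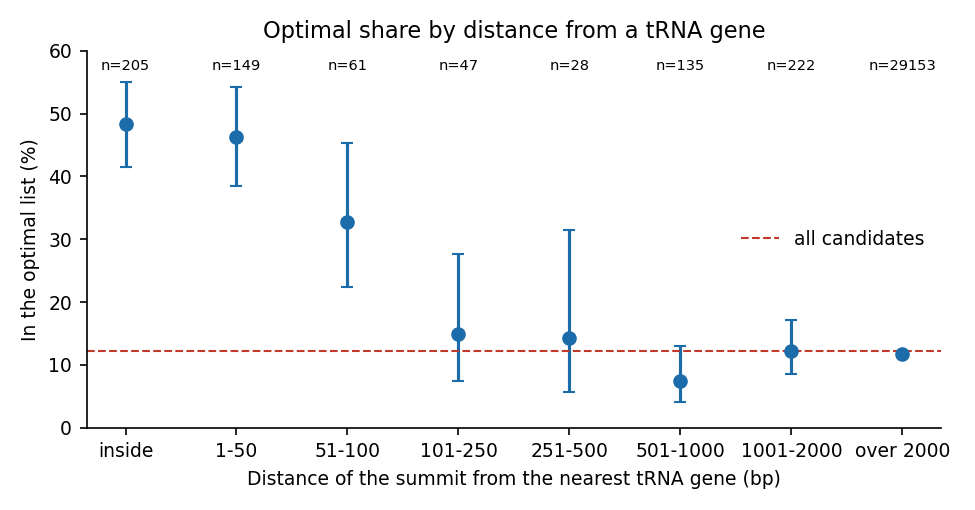
Share of pooled candidates in the optimal list (%, vertical axis) by distance of the summit from the nearest tRNA gene (bp, horizontal axis), with 95% Wilson intervals as error bars, the number of intervals above each point and the share of all candidates as a dashed line. The share was 48.3% inside the gene and 46.3% within 50 bp, and lay near the dashed line beyond 100 bp.

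The summits were centred on the 5′ portion of the gene. Counted along the strand of the gene from its 5′ end, the median summit position was 25.5 bp (quartiles −23.75 and 66), with a median gene length of 72 bp (64 to 122 bp). Members in the optimal list had a median position of 20 bp (quartiles −27 and 50.5), and those outside it of 31 bp. Of the members with a summit outside the gene, 155 were upstream and 102 downstream. Upstream summits were in the optimal list in 72 of 155 cases (46.5%, 38.8 to 54.3) and downstream summits in 24 of 102 (23.5%, 16.4 to 32.6). The gap held at equal distance: within 50 bp the share was 51.9% upstream (54 of 104, 42.4 to 61.3) and 33.3% downstream (15 of 45, 21.4 to 47.9), with overlapping intervals. At 51 to 100 bp it was 42.9% upstream (15 of 35) and 19.2% downstream (5 of 26). Of the members that overlapped a stronger optimal interval, 10 were upstream and 27 downstream. Without them, a subset added after seeing the data, the share was 49.7% upstream (72 of 145, 41.6 to 57.7) and 32% downstream (24 of 75, 22.5 to 43.2), with overlapping intervals. Overlap with the 3647 strongest of each replicate ran the other way, at 36.1% upstream (56 of 155) and 42.2% downstream (43 of 102), and without those members it was 34.5% upstream and 26.7% downstream. The difference between the sides was not tested.

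**Figure D3:**
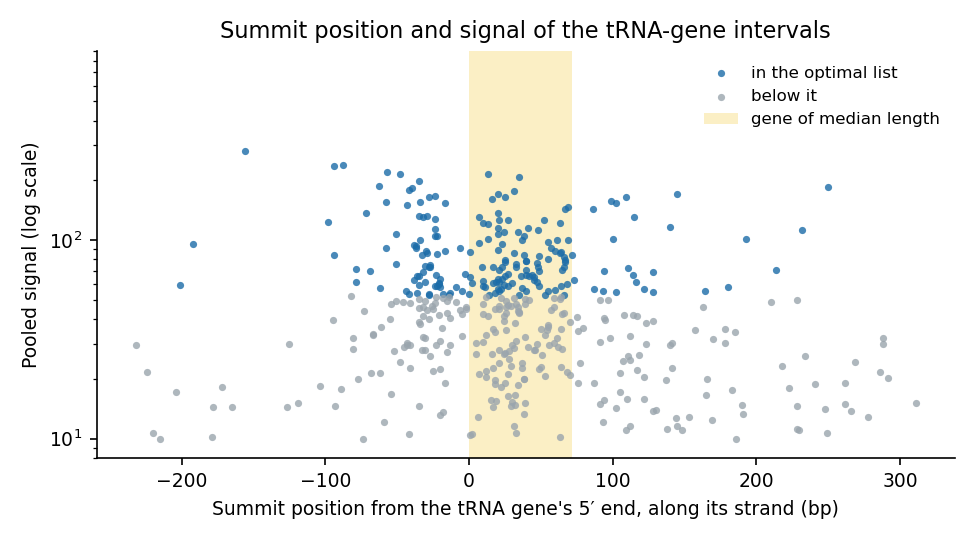
Pooled signal (log scale, vertical axis) of the 462 members against the position of the summit from the 5′ end of the tRNA gene along its strand (bp, horizontal axis), with members of the optimal list in blue and the others in grey; the yellow band spans a gene of the median length, 72 bp. Of the 195 optimal members, 99 lie in the gene and 54 in the 50 bp before it, and the strongest member lies 156 bp upstream.

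Neighbouring intervals were not independent. Of the 267 members outside the optimal list, 42 overlapped an optimal interval, and their median signal was 20.3. Leaving out these 42, a step added after seeing the data, gave 420 members and a share in the optimal list of 46.4%. Because only members outside the optimal list were left out, the share had to rise. The step was not applied to all candidates, so their share is no like-for-like value for it. The second intervals beside F46G11.t1 (signal 24.7) and F13G11.t1 (15.0) are examples, since each sits next to an interval of the first 20. In all, 108 members shared their nearest gene with another member, and 67 lay within 250 bp of more than 1 tRNA gene. Most members were 390 bp wide. The other 7 were 150 to 806 bp wide and all were optimal. Intervals of another width than 390 bp made up 1.52% of members, against 2.69% of all candidates, and 3.59% of the 195 optimal members, against 21.3% of the optimal list.

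Counted by gene, 456 of the 612 annotated nuclear tRNA genes (74.5%, 70.9 to 77.8) had a candidate summit within 250 bp. An optimal summit lay beside 223 of them (36.4%, 32.7 to 40.3), and 156 had no candidate. A summit within 250 bp of several genes counted for each of those genes. The annotation gave an isotype, the amino acid that the tRNA carries, for 607 of the 612 genes, over 21 isotypes. Each of the 21 isotypes had a gene with a candidate.

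By isotype of the nearest gene, members beside alanine tRNA genes had the highest share in the optimal list among isotypes with at least 5 members, 16 of 28 (57.1%, 39.1 to 73.5). It was 11 of 21 for isoleucine (52.4%), 17 of 34 for arginine, 8 of 16 for glutamine and 11 of 22 for threonine (50% each). The lowest share was that of histidine, 2 of 12 (16.7%, 4.70 to 44.8), followed by asparagine, 4 of 16, and tyrosine, 3 of 12 (25% each). The intervals of the highest and the lowest isotype overlap. The other isotypes with at least 5 members lay between, from proline (10 of 33, 30.3%) to valine (13 of 27, 48.1%). The single selenocysteine tRNA gene, K11H12.t1, which reads a stop codon, had its interval in the optimal list (signal 57.7, rank 3219; 27.8 in replicate 1 and 30.6 in replicate 2).

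The strongest member of each isotype ranged widely. For the isotypes not among the first 20, it lay at F41A4.t1 for aspartate (signal 153.6, rank 697), C37A2.t1 for cysteine (155.4, rank 683), T03G6.t1 for glycine (126.6, rank 995), C06G1.t1 for histidine (132.8, rank 900), T28B4.t1 for phenylalanine (91.2, rank 1711), W09G10.t3 for threonine (150.6, rank 724) and sup-5 for tryptophan (110.2, rank 1309). Methionine had the lowest of these values, 67.4 at T15B12.t1 (rank 2610). There the replicates stood apart, at 45.8 in replicate 1 (rank 1284) and 22.1 in replicate 2 (rank 5828).

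Many tRNA genes are exact copies, which lets sites with the same gene sequence be compared. The 612 genes had 200 distinct sequences, 143 of them found once and 57 shared by 469 genes. Genes with a sequence found once had a candidate in 77 of 143 cases (53.8%, 45.7 to 61.8) and an optimal summit in 36 (25.2%, 18.8 to 32.9). Genes with at least 1 identical copy had a candidate in 379 of 469 cases (80.8%, 77.0 to 84.1) and an optimal summit in 187 (39.9%, 35.5 to 44.4). The intervals do not overlap for either count. Taken separately on X and on the autosomes, they stay apart for candidates but overlap for optimal summits. On X an optimal summit lay beside 35.1% of genes found once (24.0 to 48.1) and 52.5% of the others (45.9 to 59.0). On the autosomes it was 18.6% (11.8 to 28.1) and 28.8% (23.5 to 34.7). For genes in families of 21 or more copies, 86 of 99 had a candidate (86.9%).

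Within a family the signal nonetheless varied several-fold. The 24 identical proline genes, of the F46G11.t1 sequence, had a candidate at 22 copies and an optimal summit at 11, with signals of 14.5 to 235.6 and a median of 60.2. The 15 identical glutamine genes, of the R04A9.t1 sequence, had a candidate at 12 and an optimal summit at 5, with signals of 14.0 to 279.8. The highest of these signals is that of the interval upstream of R04A9.t1 described above. That interval ends before the gene, and its summit lies in the promoter window of ZK1193.2. The 15 alanine genes, of the T18D3.t1 sequence, had a candidate at all 15 copies and an optimal summit at 9, with signals of 21.4 to 166.1. The 11 histidine genes, of the C06G1.t1 sequence, had a candidate at 9 and an optimal summit at 1 only, C06G1.t1 itself. The same gene sequence was thus found beside optimal, weaker and no intervals.

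The tryptophan family has copies with classical names, since mutants of them read the amber stop codon as suppressors. Of its 10 copies, 8 had a candidate and 2 an optimal summit. These 2 were sup-5 (signal 110.2; 45.2 in replicate 1 and 64.4 in replicate 2) and sup-7 (94.3; 44.0 and 50.1). The signal was 47.8 at sup-21, 42.1 at sup-28, 35.5 at sup-24 and 28.9 at sup-33, and sup-29 had no candidate. Of these, sup-7, sup-21, sup-28, sup-29 and sup-33 were chosen for naming after their values were seen.

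The sources used here do not say how reads of identical copies were treated, so uniqueness of the sequence was measured beside the signal. Over 32-base words of the genome, members had a median of 85.2% of words found once, against 100% for all candidates. A repeated word was present in 433 of 462 members and in 3317 of the 30000 candidates. These 433 had a median rank of 4198 and 42.7% were optimal (38.1 to 47.4). The 29 members with every word unique had a median rank of 11362, and 34.5% were optimal (19.9 to 52.7), with overlapping intervals. An interval that contains a gene with identical copies must hold a repeated word. This split is therefore not separate from copy number or from the distance to the gene. Among all candidates the order of the median ranks was the reverse, 17209 with a repeated word and 14754 without. Overlap with the strongest of both replicates was 36.7% for the 433 and 48.3% for the 29. The tRNA genes with 150 bp on each side had a median of 84.2% where a candidate was present and of 84.5% where none was. In 19 genes this value was under 50%, and of these 9 had a candidate and none an optimal summit, against 447 and 223 of the other 593 genes. The part of this in the results was not tested further.

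Chromosome X held 217 of the 462 members (47.0%, 42.5 to 51.5), against 19.9% of all candidates. It also holds 276 of the 612 tRNA genes (45.1%), so the members' share on X was close to that of the genes. The strength of the members differed as well. On X, 114 of 217 members were optimal (52.5%, 45.9 to 59.1), with a median signal of 53.8, against 81 of 245 on the autosomes (33.1%, 27.5 to 39.2), with a median of 41.5. Among all candidates the shares were 13.6% on X and 11.8% on the autosomes. Autosomal shares ran from 27.5% on chromosome I (14 of 51) to 43.8% on chromosome IV (21 of 48).

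By gene, 135 of 276 tRNA genes on X had an optimal summit (48.9%, 43.1 to 54.8), against 88 of 336 on the autosomes (26.2%, 21.8 to 31.1). These counts include genes that share a summit, and the optimal members numbered 114 on X and 81 on the autosomes. The same order was seen in each replicate list alone: 48.4% of X intervals beside tRNA genes (105 of 217) were among the 3647 strongest of replicate 1, against 35.1% of autosomal ones (81 of 231) and 12.2% of all intervals of a list. In replicate 2 the shares were 50.5% on X (109 of 216) and 31.8% on the autosomes (76 of 239). The order was the same in and outside protein-coding promoter windows. Members in promoter windows were optimal in 56.1% of cases on X and 30.7% on the autosomes, and those outside promoter windows in 51.7% and 34.1%. For tRNA genes with a sequence found once, an optimal summit was present at 20 of 57 on X (35.1%, 24.0 to 48.1) and at 16 of 86 on the autosomes (18.6%, 11.8 to 28.1), and these intervals overlap.

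Identical copies on X and on autosomes allow the comparison at a fixed gene sequence. Of the 20 families with at least 10 copies, 19 had copies on both. The share of copies with an optimal summit was higher on X in 16 of these families and lower in 3. In the 18-copy asparagine family of F41D9.t3, 4 of 5 copies on X and 0 of 13 on autosomes had an optimal summit. In the 24-copy proline family it was 8 of 13 on X and 3 of 11 on autosomes. Neighbouring copies could share a summit, which then counted for each, so these are not counts of separate sites. In the proline family this was so for F46G11.t1 and F46G11.t2 on X (signal 235.6). It was also so for W09D6.t1 and W09D6.t2 on chromosome III (182.9). The opposite was seen for the 10-copy phenylalanine family of T28B4.t1, with 1 of 5 on X and 4 of 5 on autosomes. The difference between X and the autosomes was not tested, since copies of a gene are not replicates.

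**Figure D4:**
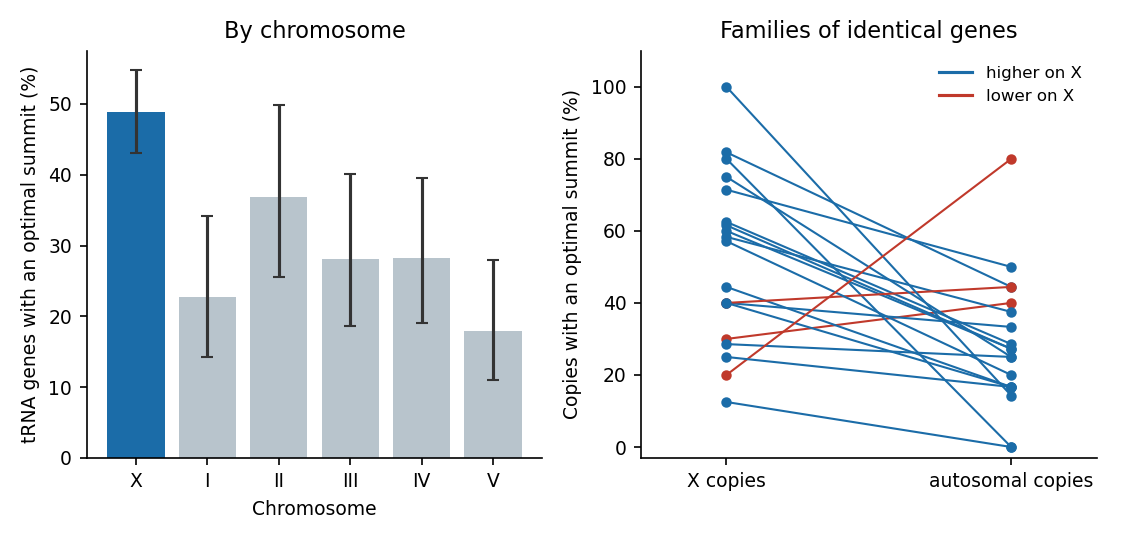
Left, share of tRNA genes with an optimal summit within 250 bp (%) by chromosome, with 95% Wilson intervals as error bars; right, share of copies with an optimal summit (%) on X and on autosomes for each of the 19 families of at least 10 identical tRNA genes with copies on both, joined by a line. The share was 48.9% on X and lower on each autosome, and 16 of the 19 lines are higher on the X side. A summit beside several genes counts for each of them.

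Clustering of tRNA genes went with no higher share of members in the optimal list, though genes in clusters more often had a candidate. Joined at gaps of up to 1000 bp, the genes formed 476 clusters, of which 376 held a single gene. Members whose nearest gene stood alone were optimal in 141 of 302 cases (46.7%, 41.1 to 52.3). The share was 37 of 109 in clusters of 2 genes (33.9%, 25.7 to 43.2), 10 of 26 in clusters of 3 (38.5%) and 7 of 25 in clusters of at least 4 (28.0%, 14.3 to 47.6). Counted by gene, 37.2% of lone genes and 37.2% of genes in pairs had an optimal summit, and the genes of a pair could share a summit. A candidate was present at 69.9% of lone genes (65.1 to 74.4) and 82.1% of genes in pairs (75.3 to 87.3), and these intervals do not overlap. It was present at 76.2% of genes in clusters of 3 (61.5 to 86.5) and 86.8% in clusters of at least 4 (72.7 to 94.2).

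The 2 largest clusters, of 6 genes each, lie on X. The first, chrX:8154445-8156707, holds 2 serine, 2 aspartate, 1 methionine and 1 isoleucine gene, F22F1.t2 to F22F1.t7. Its only optimal member lay at the isoleucine gene F22F1.t7 (signal 62.3, rank 2882). Members at F22F1.t3 (31.0), F22F1.t5 (22.4) and F22F1.t6 (12.8) were weaker, and the serine genes F22F1.t2 and F22F1.t4 were within 250 bp of summits nearest to their neighbours. The second, chrX:14135045-14137010, holds 6 histidine genes of 1 sequence, F28H6.t2 to F28H6.t7. Members lay at F28H6.t2 (signal 35.7) and F28H6.t5 (22.9), neither optimal, and F28H6.t3 and F28H6.t6 had no candidate. In this cluster the share of words found once in a gene with 150 bp on each side ran from 0% at F28H6.t3 and F28H6.t4 to 80.7% at F28H6.t2.

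Members were also split by the place of their tRNA gene relative to protein-coding genes. Members at tRNA genes outside protein-coding genes were optimal in 113 of 244 cases (46.3%, 40.2 to 52.6), those in introns of genes on the opposite strand in 37 of 94 (39.4%, 30.1 to 49.5) and those in introns of genes on the same strand in 43 of 116 (37.1%, 28.8 to 46.1). A further 8 overlapped an exon, and 2 of these were optimal. Counted by gene, an optimal summit lay beside 132 of 319 tRNA genes outside protein-coding genes (41.4%, 36.1 to 46.9), 43 of 122 in opposite-strand introns (35.2%, 27.3 to 44.1) and 46 of 161 in same-strand introns (28.6%, 22.2 to 36.0). By gene the intervals of the first and the last of these do not overlap, whereas those of the members do. Chromosome X held 180 of these 319 genes but 50 of the 161, and on X and the autosomes taken separately the intervals by gene overlap. On X the shares were 50% outside protein-coding genes (42.8 to 57.2) and 42% in same-strand introns (29.4 to 55.8). On the autosomes they were 30.2% (23.2 to 38.3) and 22.5% (15.7 to 31.1). A summit in a protein-coding promoter window was found for 116 members, of which 46 were optimal (39.7%, 31.2 to 48.8), against 18.3% of all candidates in such windows. Outside promoter windows 149 of 346 members were optimal (43.1%, 38.0 to 48.3), against 8.77% of all candidates outside them.

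The internal elements of tRNA genes were common around the members' summits. The B-box core GTTCGANNC was present on either strand within 50 bp of 157 of 462 member summits (34%, 29.8 to 38.4), against 1.26% of all candidates. Where the summit lay in the gene it was present in 69.3% (142 of 205). The variant GTTCAANNC, searched for after seeing the data, was present in 9.96% of members and 1.41% of all candidates, and the A-box core GCNNAGNNG in 27.7% of members and 7.56% of all candidates. These values follow from the position of the members at tRNA genes. GC content of the same windows was 45.9% ± 8.69 for members and 37.4% ± 8.87 for all candidates (SD over 462 and 30000 intervals).

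Genes were also split by the cores they hold. Of the 612 genes, 441 held GTTCGANNC and 146 GTTCAANNC, and an optimal summit lay beside 162 of the 441 (36.7%) and 57 of the 146 (39.0%). For the 25 genes with neither, it was 4 (16.0%, 6.40 to 34.7), with 12 of the 25 in families of identical copies. A candidate was present at 75.3% of the 587 genes with either B-box core (71.7 to 78.6) and at 56% of the 25 with neither (37.1 to 73.3). The word GCNNAGNNG was the only A-box form searched for, so a gene without it need not lack an A box. It was present in 277 genes, with an optimal summit at 35.7%, against 37.0% of the 335 genes without this word. A candidate was present at 67.5% of genes with this word (61.8 to 72.8), against 80.3% of those without it (75.7 to 84.2). These intervals do not overlap, and a role of isotype in the split was not tested. A run of TTTT, the stop signal of RNA polymerase III, was present within 40 bp downstream of 605 of the 612 genes.

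Members were found again in the separate replicates. Applied to each replicate list, the same rule found 448 intervals in replicate 1 and 455 in replicate 2. Among the 3647 strongest of their list were 186 of the 448 (41.5%) and 185 of the 455 (40.7%), against 12.2% of all intervals of a list. The median ranks were 4493.5 in replicate 1 and 4607 in replicate 2.

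Of the 462 pooled members, 409 overlapped an interval of both replicates by at least 1 bp (88.5%), against 58.9% of all candidates, and 5 overlapped none. Members overlapping one of the 3647 strongest of both replicates numbered 173 (37.4%, 33.2 to 41.9), against 10.8% of all candidates. For 33 of the 173 the member was not optimal itself but overlapped an optimal interval. With summits required to lie within 100 bp of each other the number was 129 (27.9%), all of them optimal members. Of the 195 optimal members, 140 overlapped one of the strongest of both replicates (71.8%), against 74.8% of the whole optimal list.

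Over the 409 members found in both replicates, the replicate signals had a Spearman's rho of 0.64 and, as log2 values, a Pearson's r of 0.64, over intervals that share libraries and, in part, neighbours. Over the 17680 such candidates of the whole list the values were 0.60 and 0.75. Members ranked higher in replicate 1 in 214 cases and in replicate 2 in 195. The widest gaps in rank were at F11A1.t1 (signal 22.5, rank 3938 in replicate 1; 6.02, rank 29949 in replicate 2), ZC455.t1 (6.67, rank 25673; 35.1, rank 3198), sup-24 (6.60, rank 26046; 28.6, rank 4214), F08F1.t1 (5.94, rank 29684; 16.6, rank 8623) and C38C6.t1 (6.91, rank 24563; 32, rank 3630). None of these 5 members was optimal, and 4 of the 5 were higher in replicate 2.

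**Figure D5:**
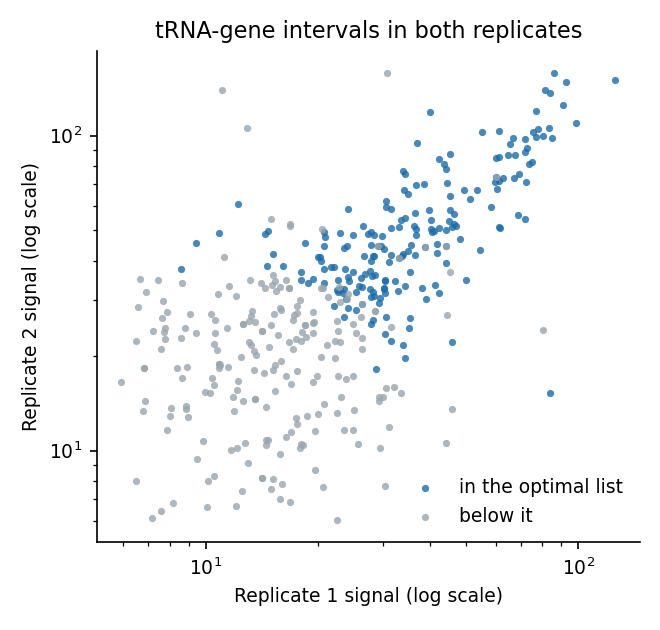
Signal in replicate 2 (vertical axis) against replicate 1 (horizontal axis), both on log scales, for the 409 members with an interval in both lists, with members of the optimal list in blue and the others in grey. Members of the optimal list lie toward the upper right, and 3 grey points above 100 in replicate 2 are the weaker intervals beside F46G11.t1, M02F4.t1 and F13G11.t1, which overlap the replicate 2 interval of their stronger neighbour.

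Genes of the tRNA pathway were looked up for an optimal summit in their promoter window, which 11.6% of all 19973 protein-coding genes had. Of 20 genes found in the annotation for RNA polymerase III and its factors, 3 had one (15.0%, 5.24 to 36.0). They were mafr-1, which represses RNA polymerase III transcription (signal 77.0), and the shared polymerase subunits rpb-10 (66.0) and rpb-8 (53.7). The subunit rpc-1 (14.7) and the TFIIIB subunit brf-1 (16.1) had weaker candidates. Of 20 cytosolic aminoacyl-tRNA synthetases, which charge tRNAs with their amino acid, 5 had an optimal summit (25%, 11.2 to 46.9), the strongest at ears-1 (74.2), fars-1 (72.9), kars-1 (57.8) and rars-1 (53.7, an interval shared with rpb-8). Of 20 genes of tRNA processing and modification, 4 had one (20%, 8.07 to 41.6): elpc-4, of the Elongator complex (118.1), the tRNA ligase rtcb-1 (90.4), popl-1, of RNase P (84.8), and the pseudouridine synthase pus-1 (70.7). All 3 intervals include 11.6%, so at this number of genes no share was distinguishable from that of all genes.

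Other short noncoding genes give a scale for these values. The 462 members were optimal in 42.2% of cases (37.8 to 46.8), against 140 of the 269 candidates within 250 bp of a snRNA or snoRNA gene (52.0%, 46.1 to 57.9). The 2 intervals overlap by a narrow margin, and 1 member lay within 250 bp of both kinds of gene. Whether intervals beside tRNA genes appear in immunoprecipitations of other tagged factors, or in animals with no tag, was not tested.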

How the data were processed

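ChIP-seq of 2 biological replicates was analysed from the deposited peak lists in build ce11. Per the text listing deposited beside them, intervals were called from ChIP alignments with a control alignment; the sources used here do not name the aligner, caller, read length or reproducibility threshold. The deposited signal per interval and its −log10 q-value are the authors' own and were used only within a list. The pooled candidates and the optimal list combine both replicates. Lists in build ce10 were not used.

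Members were the pooled candidates whose summit lay within 250 bp of a nuclear tRNA gene of Ensembl release 115 (22 mitochondrial genes left out of 634). Isotypes came from RefSeq, matched by WormBase identifier. The nearest gene names a member. Replicate values are those of the overlapping interval with the nearest summit. Named genes were those of the 20 strongest members, 5 on each side of the optimal threshold, the strongest per isotype with at least 5 members, the 2 largest clusters, the 5 widest replicate gaps and the 4 strongest per pathway list. Outside this rule, rpc-1, brf-1 and K11H12.t1 were named after their values were seen. Of 24, 21 and 22 listed pathway genes, 20 each were found. Sequences of genes that also occur on chromosome I are not printed, though the genes may be named. The members and lists were chosen with earlier results of these data known. Python 3.11.15, pandas 2.3.3, numpy 2.4.6, scipy 1.17.1 and matplotlib 3.10.9 were used, and the distance and Wilson interval steps were tested on simulated data.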

Additional observations from a re-analysis of the deposited data

How the results depend on the processing

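With summits within 100 or 500 bp, outside promoter windows, or with 1 entry per start and end, the 5 summary values (share in the optimal list, median rank, genes with an optimal summit, share on X, share among the strongest of both replicates) moved by less than their counting error or by less than 1.5 times. Outside promoter windows the number of genes with an optimal summit was 170, against 223 in the main setting, and leaving out summits can only lower this count. In the list of a single replicate, its 3647 strongest intervals took the place of the optimal list. The share among these was 40.7% to 41.5%, and the number of genes beside one of them 210 to 215. The median rank in the replicate's own list was 4493.5 to 4607, and the share on X 47.5% to 48.4%. With the stronger 50% of the optimal list the share was 16.9% and the number of genes 94, by construction of the shorter list. The share among the strongest of both replicates was 30.3% with 50% overlap and 27.9% with summits within 100 bp. The 84 members beside genes with a sequence found once gave an optimal share of 36.9% (27.4 to 47.6). This interval includes the 42.2% of all members, whereas 36.9% lies below the interval of all members (37.8 to 46.8). The difference was not tested. Further subsets were added after seeing the data. On autosomes alone the share was 33.1% and the median rank 4860. Without the members that overlapped an optimal interval the share was 46.4% and the median rank 3898.5. That share rises by construction, since none of the members left out was optimal. No paired analysis was possible because there was 1 group only. Depth is unknown, so it sets no limit here that could be stated.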
